A study of Homo sapiens with 12 samples.

Results

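The CEACAM genes encode the carcinoembryonic antigen-related cell adhesion molecules, cell surface glycoproteins built from immunoglobulin-like domains. Their transcripts were described here in HT29, an established human colorectal adenocarcinoma cell line, after treatment with a water extract of Aconitum carmichaeli Debeaux (ACD). The members were CEACAM1, CEACAM5, CEACAM6, CEACAM7 and CEACAM19, found by matching their symbols to the Ensembl identifiers of the count table, and made up 5 of 60675 gene identifiers. The members were chosen by their CPM over these same 12 libraries, seen beforehand in all 4 groups, so their levels and fold changes are a description and no p-value is given for them. All 5 members were among the 15374 genes that passed the filter on low counts.

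HT29 cells were exposed for 24 h to vehicle (phosphate-buffered saline with 2% DMSO) or to ACD at 20, 100 or 500 µg/mL, called here the low, medium and high dose. Per the paper, the extract was likewise dissolved in phosphate-buffered saline with 2% DMSO, and a small volume was added to the medium. The 2% thus describes the added solution and not the culture medium. Each of the 4 groups held 3 libraries, 12 in all, and every group shared the same cell line and time. The labels give replicate numbers but do not say that replicates were separate cultures, so p-values for other genes measure only the spread between these libraries, which may be technical. HT29 derives from 1 tumor, and the extract was applied to cells growing without the bacteria, stroma or immune cells of a colon. Each library's title and treatment field name ACD and were used for grouping, although its protocol text describes how an extract of Poria cocos was made.

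CEACAM5, known as carcinoembryonic antigen and measured in serum as a tumor marker, CEACAM6 and CEACAM7 are held in the membrane by a glycosylphosphatidylinositol (GPI) anchor and lie on the apical surface of colon epithelium. CEACAM1 spans the membrane, and its long isoform carries inhibitory tyrosine motifs in the cytoplasm that recruit the phosphatases SHP-1 and SHP-2. CEACAM1, CEACAM5 and CEACAM6 bind each other and themselves between cells and serve as receptors for several bacteria. CEACAM7 is known from the upper part of the colonic crypt and is often lost in colorectal tumors, whereas CEACAM19 is a transmembrane member that is much less studied.

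In the libraries, total expected counts were between 15941255 and 33866644 with a median of 23833237. Genes on chromosome M took 7.41% to 11% of the counts in vehicle, low-dose and medium-dose libraries and 14% to 16.6% in high-dose libraries. With library sizes counted without chromosome M, an alternative chosen after seeing the data, the high-dose log2 fold change was 0.70 for CEACAM5, 0.33 for CEACAM6 and 1.85 for CEACAM7, and the same number of members was called at each dose. High-dose replicate 2 stood apart from its group: its log2 CPM differed from the mean of the other high-dose libraries with an SD of 0.502 over 10626 genes, against 0.102 to 0.293 for the same measure in the other 11 libraries. The members' high-dose fold changes are therefore given with and without it, and those of other genes where it changes a call. All 9 colon epithelium markers (EPCAM, KRT8, KRT18, KRT19, KRT20, CDX1, VIL1, LGALS4 and CDH17) exceeded 1 CPM, with a summed level of 10900 to 13300 CPM over the libraries. The 9 leukocyte markers summed to 4.33 to 6.21 CPM, with MS4A1 and FCGR3B at 0 in every library, and the 7 stroma and endothelium markers summed to 2.41 to 4.12 CPM. Of these, 2 leukocyte markers had a mean over 1 CPM in every group. The same held for 2 stroma and endothelium markers, or 1 at the high dose. CPM is a count relative to the total of its library after trimmed-mean (TMM) scaling, in the usual unit of that name, and CPM per kb divides it by the length of the canonical transcript. A bulk level cannot tell fewer cells expressing a gene from less RNA of it per cell.

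All 5 genes lie on the long arm of chromosome 19 (GRCh38, GENCODE release 44). CEACAM7 (ENSG00000007306) occupies bases 41673303 to 41706976 on the minus strand and has 5 exons in its canonical transcript of 2376 bases. CEACAM5 (ENSG00000105388) begins 1.61 kb further on, at bases 41708585 to 41730433 on the plus strand, with 10 exons and a transcript of 3501 bases. CEACAM6 (ENSG00000086548) follows after another 20.5 kb, at bases 41750977 to 41772211 on the plus strand, with 6 exons and 2594 bases. The 3 genes for GPI-anchored members are thus direct neighbors. CEACAM1 (ENSG00000079385) spans bases 42507304 to 42561234 on the minus strand, with 9 exons and 3491 bases. CEACAM19 (ENSG00000186567) lies at bases 44662278 to 44684359 on the plus strand, with 8 exons and 2215 bases.

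The canonical transcripts of the members have identical stretches in common, none longer than 71 bases. A read cut to less than its full 100 bases could thus be hard to place. The stretch below is the longest run of bases that CEACAM1 and CEACAM6 have in common, 71 bases at positions 396 to 466 and 398 to 468 of their canonical transcripts. It is shown beside the aligned stretches of CEACAM5 (positions 395 to 465) and CEACAM7 (397 to 467), with capitals marking the bases that differ from CEACAM1.
CEACAM1: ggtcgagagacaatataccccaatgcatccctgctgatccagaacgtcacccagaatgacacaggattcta
CEACAM6: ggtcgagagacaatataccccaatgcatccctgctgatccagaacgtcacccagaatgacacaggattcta
CEACAM5: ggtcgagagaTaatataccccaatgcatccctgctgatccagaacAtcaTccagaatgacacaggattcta
CEACAM7: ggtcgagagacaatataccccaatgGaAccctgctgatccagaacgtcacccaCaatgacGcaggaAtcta
CEACAM5 differed from CEACAM1 at 3 of the 71 bases and CEACAM7 at 5, which is an identity of 95.8% and 93.0%. The reads were 100 bases long and paired, so a single read that reaches past this stretch meets a difference between CEACAM1 and CEACAM6.

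The windows just upstream of the transcription start are shown because the 3 neighboring genes and CEACAM1 are alike there too. Each holds the 215 bases from 250 to 36 bases before the start in RefSeq (GRCh38.p14), read 5′ to 3′ on the gene's strand, with capitals marking words of 8 bases that occur in all 4 windows. GENCODE spans of all 4 genes reach further upstream than these RefSeq starts, and that of CEACAM5 begins at base 41708585, inside its window. The windows are chr19:42528517-42528731 on the minus strand for CEACAM1, chr19:41708376-41708590 on the plus strand for CEACAM5, chr19:41755280-41755494 on the plus strand for CEACAM6 and chr19:41688306-41688520 on the minus strand for CEACAM7.
CEACAM1: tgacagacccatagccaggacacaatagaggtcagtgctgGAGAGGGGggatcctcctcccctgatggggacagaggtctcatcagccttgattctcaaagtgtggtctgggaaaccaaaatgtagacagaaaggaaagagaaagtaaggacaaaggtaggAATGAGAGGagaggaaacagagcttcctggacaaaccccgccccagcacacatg
CEACAM5: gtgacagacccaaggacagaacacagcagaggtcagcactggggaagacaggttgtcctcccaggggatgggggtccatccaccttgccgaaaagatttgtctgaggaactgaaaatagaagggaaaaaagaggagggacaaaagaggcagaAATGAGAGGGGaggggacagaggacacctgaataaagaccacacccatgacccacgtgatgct
CEACAM6: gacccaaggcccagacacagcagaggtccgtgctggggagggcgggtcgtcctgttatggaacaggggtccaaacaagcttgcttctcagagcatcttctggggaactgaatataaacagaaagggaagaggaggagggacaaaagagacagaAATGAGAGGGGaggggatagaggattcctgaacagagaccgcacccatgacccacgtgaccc
CEACAM7: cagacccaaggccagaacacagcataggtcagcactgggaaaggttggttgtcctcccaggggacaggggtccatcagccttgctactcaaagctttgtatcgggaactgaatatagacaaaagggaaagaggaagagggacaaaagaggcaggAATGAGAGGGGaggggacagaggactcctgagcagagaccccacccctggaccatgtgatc
The windows of CEACAM5 and CEACAM7 were 81.0% identical, those of CEACAM6 and CEACAM7 79.5% and those of CEACAM5 and CEACAM6 75.4%. The window of CEACAM1 was less similar, at 72.1% to CEACAM7, 68.6% to CEACAM6 and 66.5% to CEACAM5. The capitals form 1 run of 11 bases, AATGAGAGGGG, in CEACAM5, CEACAM6 and CEACAM7.

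Motifs were searched as plain letters on both strands of the same window in 34786 promoters. CACGTG, the E-box letters bound by upstream stimulatory factors, was found in CEACAM5 (46 to 41 bases before the start) and CEACAM6 (45 to 40 bases before it), and in 5.2% of all promoters. GGGCGG, the GC box bound by SP1, was found in CEACAM1 (52 to 47 bases before the start, on the opposite strand) and CEACAM6 (211 to 206 bases before it), and in 38.2% of all promoters. The interferon response element (GAAA, any 2 bases and GAAA) was found in CEACAM1 (2.5% of promoters), and TATAAA in CEACAM6 (8.0%). CEACAM7, the member with the largest fold change, held none of the 8 motifs searched. The other 4 were the aryl hydrocarbon receptor core GCGTG (28.4% of promoters), the antioxidant response core TGACNNNGC (9.2%), the NF-κB letters (GGG, any 2 bases and TTTCC; 1.5%) and the TCF letters ATCAAAG (2.0%), and none was in any of the 4 windows. A match is a description of letters and not of a bound site.

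In vehicle libraries the members differed widely in level. CEACAM1 had 35.4 CPM per kb, CEACAM6 13.3, CEACAM5 1.75, CEACAM19 0.488 and CEACAM7 0.214. At the high dose the first 3 places of this order were the same, with 31.5 CPM per kb for CEACAM1, 16.6 for CEACAM6 and 2.8 for CEACAM5. CEACAM7 then had 0.752 CPM per kb and CEACAM19 0.544, and the high-dose libraries of these last 2 members overlapped in CPM per kb. CEACAM1 was thus the most abundant member in every group, and CEACAM7 moved from the last place to a level near that of CEACAM19.

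**Figure D1:**
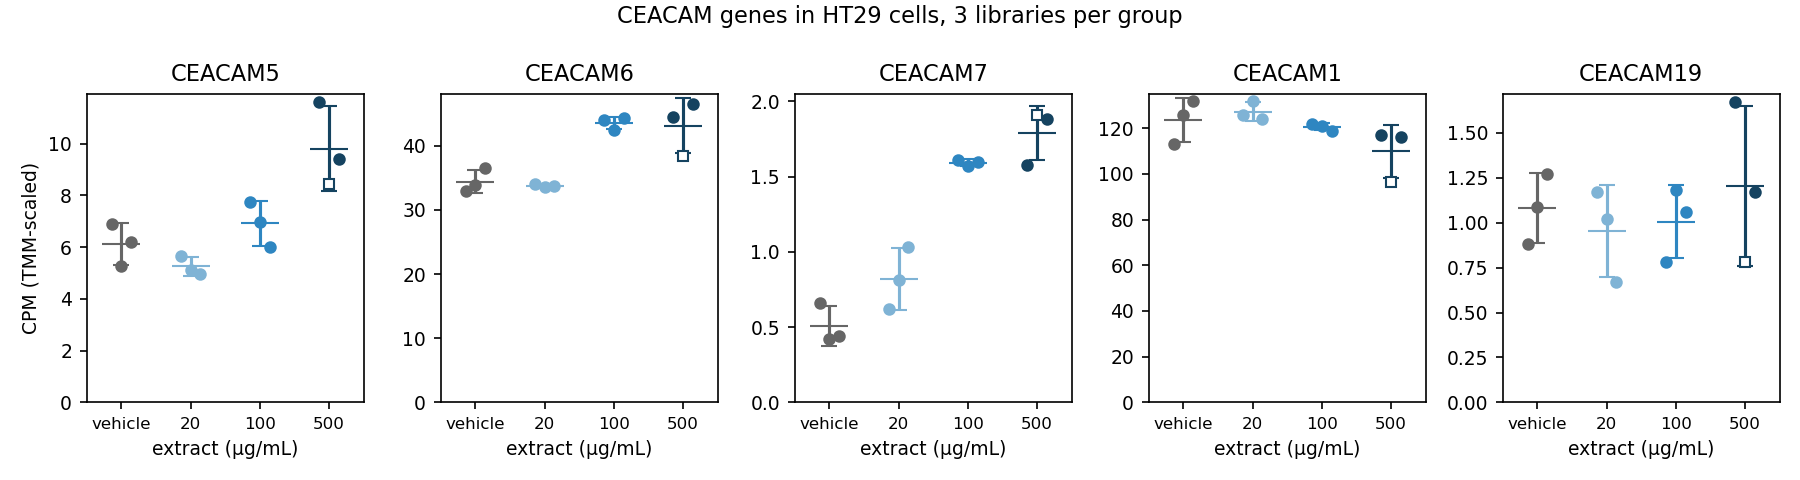
CPM of each of the 5 CEACAM members (one panel per gene, y axis from 0) in the 12 libraries by ACD dose, with points for libraries, a horizontal line for the group mean and error bars for the SD of 3 libraries; the white square is high-dose replicate 2. CEACAM7 sits at 0.424 to 0.66 CPM in vehicle and 1.58 to 1.91 CPM at the high dose, while CEACAM1 stays between 96.5 and 132 CPM over all libraries.

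CEACAM7 showed the largest difference from vehicle of the 5 members. Its level was 0.66, 0.424 and 0.439 CPM in vehicle replicates 1 to 3, 0.618, 0.81 and 1.03 CPM at the low dose, 1.61, 1.57 and 1.6 CPM at the medium dose and 1.58, 1.91 and 1.88 CPM at the high dose. The medium-dose and high-dose libraries all lay above every vehicle and low-dose library, while 1 low-dose library lay below the highest vehicle library. The log2 fold change against vehicle was 0.71 (SE 0.25) for the low, 1.68 (SE 0.23; 3.2-fold) for the medium and 1.84 (SE 0.24; 3.59-fold) for the high dose. Without high-dose replicate 2 the high-dose value was 1.81 (SE 0.27). These levels rest on few reads, with 10 to 14 expected counts per library in vehicle, 18 to 23 at the low dose, 35 to 48 at the medium dose and 27 to 61 at the high dose. Most of the difference was present at the medium dose, and the medium-dose and high-dose libraries overlapped.

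CEACAM5 was higher at the high dose and not at the others. It stood at 6.88, 5.27 and 6.2 CPM in vehicle, 5.67, 5.11 and 4.97 CPM at the low dose, 7.76, 6.98 and 6.02 CPM at the medium dose and 11.6, 8.42 and 9.41 CPM at the high dose. Every high-dose library lay above every library of the other groups, and the medium-dose and low-dose libraries each overlapped with vehicle. Against vehicle the log2 fold change was −0.21 (SE 0.15) at the low dose, 0.19 (SE 0.15) at the medium dose and 0.70 (SE 0.14; 1.63-fold) at the high dose. It was 0.79 (SE 0.13) without high-dose replicate 2, whose level was the lowest of the 3. With a call defined as an adjusted p below 0.05 and a fold change over 1.5 in edgeR, CEACAM5 was not called without vehicle replicate 2 or without high-dose replicate 1.

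CEACAM6, the second most abundant member, reached a higher level at the medium dose and held it at the high dose. Vehicle libraries had 32.9, 33.9 and 36.5 CPM and low-dose libraries 34, 33.6 and 33.8 CPM. Medium-dose libraries had 44, 42.5 and 44.3 CPM and high-dose libraries 44.5, 38.4 and 46.6 CPM. Both upper doses lay wholly above vehicle, with a log2 fold change of 0.34 (SE 0.08; 1.27-fold) at the medium dose and 0.33 (SE 0.08; 1.26-fold) at the high dose. The lowest of the 6 values, 38.4 CPM, was high-dose replicate 2, and without it the high-dose value was 0.41 (SE 0.06). At the low dose the log2 fold change was −0.03 (SE 0.08).

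CEACAM1, the transmembrane member, did not share this pattern. It had 113, 126 and 132 CPM in vehicle, 126, 132 and 124 CPM at the low dose, 122, 121 and 119 CPM at the medium dose and 117, 96.5 and 116 CPM at the high dose. All 3 doses overlapped with vehicle, and the log2 fold change was 0.05 (low), −0.03 (medium) and −0.17 (high), each with an SE of 0.08. The high-dose value was −0.08 (SE 0.06) without replicate 2, whose 96.5 CPM was the lowest of the 12 libraries.

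CEACAM19 was near the limit of what these libraries measure, with 11 to 38 expected counts per library. Its levels were 0.881, 1.09 and 1.27 CPM in vehicle, 1.17, 1.02 and 0.671 CPM at the low dose, 0.78, 1.18 and 1.06 CPM at the medium dose and 1.67, 0.779 and 1.17 CPM at the high dose. The groups overlapped throughout. The log2 fold change was −0.17, −0.10 and 0.18 from low to high dose, each with an SE of 0.29, and the high-dose value was 0.35 (SE 0.28) without high-dose replicate 2, so a difference smaller than this spread was not detectable at this depth.

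Under the rule used for all genes (edgeR's quasi-likelihood test with a Benjamini-Hochberg adjusted p below 0.05 and a fold change over 1.5), CEACAM5 and CEACAM7 were called at the high dose, where 2.93% of all genes tested were called and 1.26% were called higher. Only CEACAM7 was called at the medium dose, where 0.676% of genes were called and 0.384% called higher, and DESeq2 on those 2 groups alone did not call it (log2 fold change 1.69, SE 0.42). No member was called at the low dose, where 0.111% of genes were called, and DESeq2 called 0 there. In edgeR 1 of the 5 had an unadjusted p below 0.05 at that dose, as 1223 of the 15374 genes tested did. Libraries of CEACAM5, CEACAM6 and CEACAM7 did not overlap with vehicle at the high dose, where 22.0% of genes did not overlap and 10.5% lay higher without overlap. The same held for CEACAM6 and CEACAM7 at the medium dose (28.7% of genes, 14.5% higher) and for no member at the low dose (21.0% of genes). Since the members were picked with these contrasts known, nothing is read from their counts against these percentages.

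**Figure D2:**
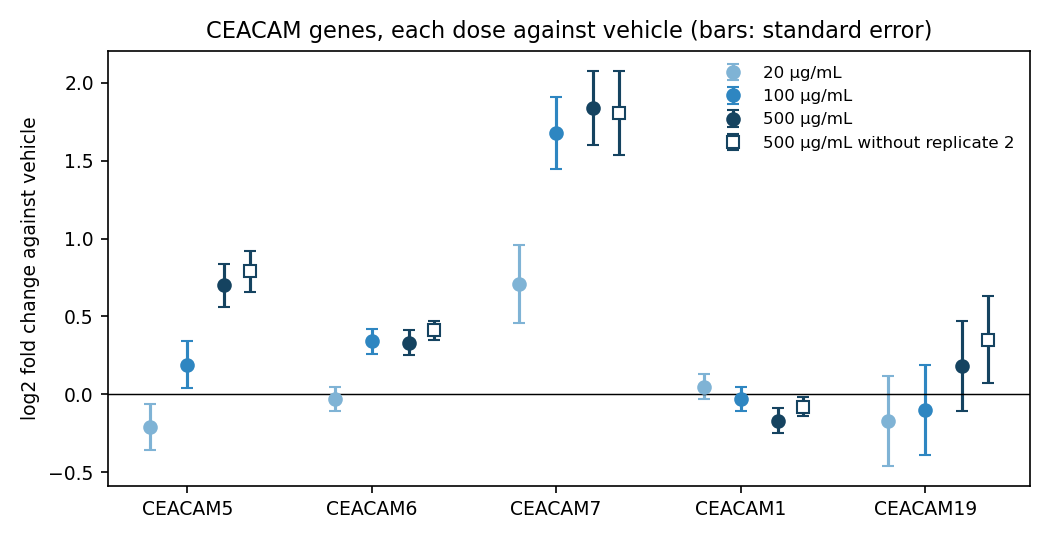
Log2 fold change against vehicle (y axis) of the 5 CEACAM members at the low, medium and high dose, with error bars of 1 SE from the edgeR fit over 12 libraries and white squares for the high dose without replicate 2. CEACAM7 lies at 0.71, 1.68 and 1.84, CEACAM5 at −0.21, 0.19 and 0.70, CEACAM6 at −0.03, 0.34 and 0.33, and the filled points of CEACAM1 and CEACAM19 between −0.17 and 0.18.

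The 3 doses were compared with the same vehicle libraries, so the high dose was also set against the low dose, which leaves out the vehicle mean. The filter, scaling and spread still came from all 12 libraries, so the vehicle libraries enter the SEs and calls of this contrast. CEACAM5 was 1.88-fold higher at the high than at the low dose (log2 fold change 0.91, SE 0.14), CEACAM7 2.2-fold higher (1.14, SE 0.22) and CEACAM6 1.28-fold higher (0.36, SE 0.08). CEACAM5 and CEACAM7 were called in this contrast, in which 1.58% of all genes were called and 0.748% called higher. Those 2 and CEACAM6 also lay higher without overlap, as 9.61% of genes did. The call of CEACAM7 in this contrast was lost in 5 of 20 alternatives, namely without high-dose replicate 3 or low-dose replicate 1 or 2 and with edgeR or DESeq2 on the 2 groups alone, with log2 fold changes of 0.97 to 1.33 over the alternatives. That of CEACAM5 was lost with edgeR on the 2 groups alone. CEACAM1 had a log2 fold change of −0.22 (SE 0.08), with its libraries lower without overlap, as 10.6% of genes were, and in either direction 20.2% of genes did not overlap. Without high-dose replicate 2 the values were 0.99 for CEACAM5, 1.10 for CEACAM7, 0.43 for CEACAM6 and −0.13 for CEACAM1.

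The sum of the 5 members, most of which was CEACAM1, differed from vehicle at each dose by less than the SD of the vehicle libraries. The summed level was 166 ± 11 CPM in vehicle, 168 ± 3.99 CPM at the low dose, 174 ± 2 CPM at the medium dose and 166 ± 17.2 CPM at the high dose (SD, n = 3). The composition of that sum did differ between groups. As a share of the summed level per kb, CEACAM1 made up 69.2% ± 1.25 in vehicle, 70.5% ± 0.735 at the low dose, but 63.4% ± 0.478 at the medium and 60.3% ± 0.25 at the high dose (SD, n = 3). CEACAM6 made up 26% ± 0.583 in vehicle, 30.9% ± 0.738 at the medium and 31.9% ± 0.855 at the high dose. CEACAM5 went from 3.44% in vehicle to 5.36% at the high dose and CEACAM7 from 0.424% to 1.46%.

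A ratio of members within a library does not depend on how libraries are scaled. Per 1000 expected counts of CEACAM1, CEACAM6 had 269 to 292 counts in vehicle, 254 to 272 at the low dose, 350 to 373 at the medium dose and 380 to 402 at the high dose. The medium-dose and high-dose libraries each formed a separate range, vehicle and low dose overlapped, and high-dose replicate 2 did not stand apart (mean 393 with it, 391 without). CEACAM5 had 41.8 to 61.2 counts per 1000 of CEACAM1 in vehicle, 38.7 to 44.9 at the low dose, 50.7 to 63.8 at the medium dose and 81.2 to 99.1 at the high dose. CEACAM7 had 3.34 to 5.86, 4.89 to 8.28, 12.9 to 13.4 and 13.4 to 19.8 in the same order. Relative to CEACAM6, CEACAM5 had 178 ± 28.2 counts per 1000 in vehicle, 159 ± 20.6 at the medium and 227 ± 30.4 at the high dose (SD, n = 3). CEACAM7 relative to CEACAM6 had 14.9 ± 4.52, 36.5 ± 0.414 and 41.8 ± 7.29 counts per 1000 at these doses. Relative to CEACAM1, all 3 GPI-anchored members thus lay above their vehicle range at the high dose, and CEACAM6 and CEACAM7 also did so at the medium dose. How many of all genes did so relative to CEACAM1 was not counted, so nothing is read from these counts. On the CPM scale 10.5% of all genes lay higher without overlap at the high dose and 14.5% at the medium dose. CEACAM1 had a high-dose log2 fold change of −0.17 (SE 0.08), and a lower CEACAM1 raises every such ratio. Such a ratio shows unequal change between genes and not which of them changed.

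**Figure D3:**
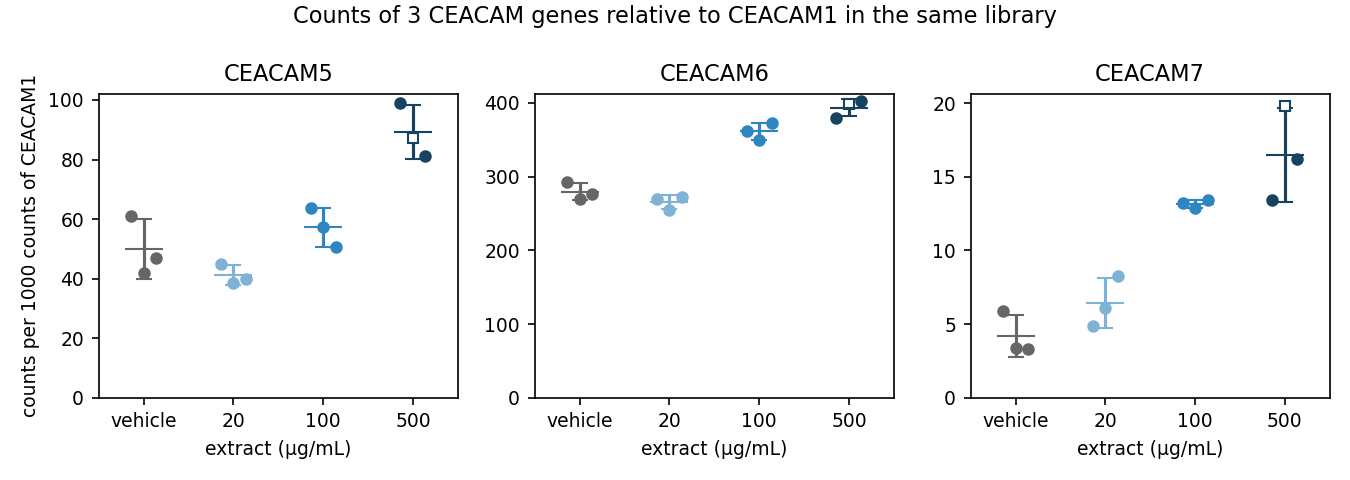
Expected counts of CEACAM5, CEACAM6 and CEACAM7 per 1000 expected counts of CEACAM1 in each of the 12 libraries (y axis from 0, one panel per gene) by dose, with horizontal lines for group means and error bars for the SD of 3 libraries; the white square is high-dose replicate 2. CEACAM6 is at 269 to 292 in vehicle and at 380 to 402 at the high dose, and CEACAM7 at 3.34 to 5.86 and 13.4 to 19.8.

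How far reads could have moved between members was looked at in the transcripts themselves. No window of 100 bases of one member's canonical transcript occurred unchanged in another member's transcripts. The longest run in common was 71 bases for CEACAM1 and CEACAM6, 68 for CEACAM1 and CEACAM5, 65 for CEACAM5 and CEACAM6, and 36 or fewer for CEACAM7 with any of the 3. Of words of 25 bases, 10.23% of those of CEACAM6 also occurred in CEACAM5, 9.66% of those of CEACAM5 in CEACAM6, 7.82% of those of CEACAM5 in CEACAM1 and 6.69% of those of CEACAM6 in CEACAM1. CEACAM7 had at most 0.81% of its words in common with another member and CEACAM19 none. CEACAM7 was thus the least alike of the 4 related transcripts at this word length. Aligned end to end, the canonical transcripts of CEACAM6 and CEACAM7 had the highest percent identity, 70.8% (1897 of 2678 aligned columns). This percentage divides by the length of the alignment, so pairs of unequal length score lower. CEACAM5 and CEACAM6, at 58.4%, had more identical bases, 2088 over 3575 columns. CEACAM7 was 51.7% identical to CEACAM1 and 52.1% to CEACAM5, close to its 50.1% with CEACAM19. The ranking thus depends on transcript length and does not show which pair is most closely related.

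**Figure D4:**
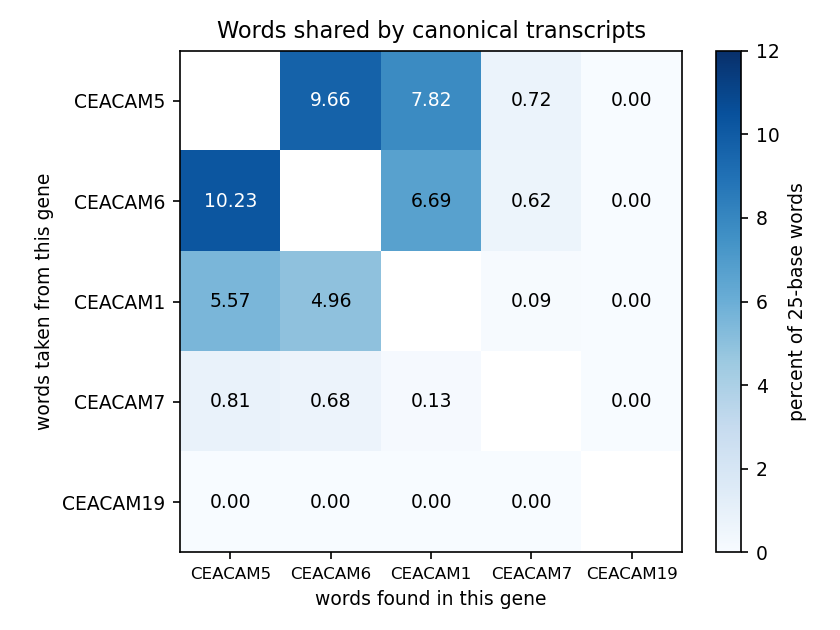
Percent of the 25-base words of each CEACAM member's canonical transcript (rows) that also occur in the canonical transcript of another member (columns), GENCODE release 44. CEACAM5 and CEACAM6 share the most (10.23% and 9.66%), CEACAM7 at most 0.81% and CEACAM19 none.

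Expected counts can be fractions where RSEM divided reads between genes. Values within 0.001 of a whole number were counted as whole, which alone does not show that no read was divided. Values of CEACAM1, CEACAM6, CEACAM7 and CEACAM19 were whole in 12 of 12 libraries. Those of CEACAM5 were whole in 1 of 12. An annotated read-through gene (ENSG00000267881) contains 65 of the 3402 windows of 100 bases of CEACAM5 (1.91%) and 51 of the 2495 of CEACAM6 (2.04%). The read-through gene had 0 to 28.14 expected counts per library, and the sum of both was whole in 12 of 12. When both were added into 1 feature, an alternative chosen after seeing the data, the high-dose log2 fold change was 0.67 (SE 0.14) in place of 0.70 and was called. CEACAM1 had 18 of its 3392 windows (0.53%) in common with CEACAM3, which had 3 counts over all libraries.

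Adding CEACAM5 and CEACAM6 into 1 feature, which removes any division of reads between them, gave log2 fold changes of −0.05, 0.32 and 0.39 from low to high dose (SE 0.08 each). With CEACAM1 and CEACAM7 added as well they were 0.03, 0.07 and 0 (SE 0.08 each). Genes that overlap a member were checked too, since the kit keeps strand but the strand setting of the counting is not given in the sources used here. CEACAM16-AS1, which runs antisense over CEACAM19, had more counts than CEACAM19 itself, at 1.69 ± 0.274 CPM in vehicle and 1.4 ± 0.651 CPM at the high dose (SD, n = 3; log2 fold change −0.38, edgeR adjusted p = 0.506). Without knowledge of that setting, reads of CEACAM19 and CEACAM16-AS1 cannot be told apart with certainty. On the same strand, PVR, the poliovirus receptor gene, overlaps the span of CEACAM19 by 3885 bases and ENSG00000279095 by 2028, neither of them within exons of its canonical transcript. PVR had 50516 counts over all libraries (high-dose log2 fold change 0.22, edgeR adjusted p = 0.3) and ENSG00000279095 had 2727. LIPE-AS1, on the strand opposite CEACAM1, had 8 to 22.07 expected counts per library, against 1363 to 4163 for CEACAM1.

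The rest of the family had almost no reads. Of the 7 other protein-coding CEACAM genes, 6 had any count, none had more than 2 expected counts in a library, and none passed the filter. CEACAM8, a marker of granulocytes, had 2 counts over all libraries, CEACAM3, a phagocytic receptor of the same cells, had 3, and CEACAM4 had none. The related pregnancy-specific glycoprotein genes, which lie between the CEACAM genes on chromosome 19, had no count apart from 1 for the antisense gene PSG8-AS1.

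The nearest tested genes outside the family that do not overlap a member were not called at any dose. Of all genes, 2.93% were called at the high, 0.676% at the medium and 0.111% at the low dose, so nothing is read from this. DMAC2, 233 kb before CEACAM7, had a high-dose log2 fold change of −0.01 (SE 0.08), and RPS19, a ribosomal protein gene 88 kb after CEACAM6, one of −0.17 (SE 0.20; edgeR adjusted p = 0.72). Beside CEACAM1, ENSG00000269374 had 0.14 and LYPD3 0.71 (SE 0.36; edgeR adjusted p = 0.3). Beside CEACAM19, ZNF180 had 0.28 and BCL3, a member of the IκB family, 0.13, leaving aside genes that overlap CEACAM19. CEACAM5, CEACAM6 and CEACAM7 lie between DMAC2 and RPS19, with no tested gene other than the overlapping read-through gene among them.

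Genes of related function were counted from 6 lists with 128 tested members of 157 listed over these and the other CEACAM genes, written with earlier results of these data known. At the high dose 7 of the 128 were called by edgeR, 5 higher and 2 lower, with a median log2 fold change of 0.04, against 2.93% called (1.26% higher and 1.68% lower) and a median of 0.01 over all genes. Without high-dose replicate 2 there were 10 calls, with CD55 lost and FLNA, MCAM, CA2 and PIGY gained, the last 4 named after their values were seen. At the medium and low dose 0 were called by edgeR and 0 by DESeq2, against 0.676% and 0.111% of all genes in edgeR. An unadjusted p below 0.05 in edgeR was found for 46 of the 128 at the high, 23 at the medium and 11 at the low dose. Of all 15374 genes tested, 3089, 1797 and 1223 had one at these doses. With 2.93% of all genes called at the high dose, nothing is read from a short list without a call.

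Of 28 tested genes for GPI anchor synthesis and attachment, edgeR and DESeq2 called 0 at the high dose, and the median log2 fold change was 0. With 2.93% of all genes called by edgeR there, this count says little about the pathway. An unadjusted p below 0.05 was found for 6 of the 28 (3089 of 15374 over all genes). PIGZ, a mannosyltransferase of the pathway, had a log2 fold change of −0.40 (SE 0.11; edgeR adjusted p = 0.0493), short of the fold threshold, and PIGM, another mannosyltransferase, one of −0.23 (SE 0.07; edgeR adjusted p = 0.0732). Without high-dose replicate 2, PIGY passed the filter and was called lower (edgeR adjusted p = 0.047), from 0.369 CPM in vehicle.

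Among 31 tested genes for other GPI-anchored surface proteins, the high dose had 3 called higher and 2 lower, and the median log2 fold change was 0.06. ULBP1, a ligand of the natural killer cell receptor NKG2D, rose from 0.45 ± 0.181 to 2.87 ± 0.597 CPM (SD, n = 3; log2 fold change 2.60, SE 0.31, edgeR adjusted p = 0.000346). ULBP2, another NKG2D ligand with close relatives in the genome, rose by 0.65 on the log2 scale (SE 0.10; edgeR adjusted p = 0.00217). CD55, which protects cells from complement, rose from 43.4 to 65.8 CPM (log2 fold change 0.60, SE 0.09, edgeR adjusted p = 0.00246), with a value of 0.47 without high-dose replicate 2, which is under the fold threshold. CD24, a heavily glycosylated surface protein, fell from 1070 ± 32 to 679 ± 62.3 CPM (log2 fold change −0.65, SE 0.08, edgeR adjusted p = 0.000483). The fifth, GPC3, was named after its values were seen and fell from 3.38 to 1.97 CPM (log2 fold change −0.74, SE 0.17, edgeR adjusted p = 0.0263). The 5 called transcripts were thus 3 that rose and 2 that fell, and the other 26 were not called.

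Other immunoglobulin-like adhesion proteins of epithelium had 2 calls among 22 tested, both higher, with a median of −0.05. ICAM1, the ligand of leukocyte integrins, rose from 4.53 ± 0.778 to 10.9 ± 0.517 CPM (SD, n = 3; log2 fold change 1.25, SE 0.12, edgeR adjusted p = 6.96e-05). AMIGO2, a leucine-rich repeat and immunoglobulin domain protein, rose from 50.1 to 89 CPM (log2 fold change 0.83, SE 0.08, edgeR adjusted p = 9.38e-05). MCAM had 0.47 (edgeR adjusted p = 0.0357), and 0.59 with a call without high-dose replicate 2 (edgeR adjusted p = 0.00052).

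The 14 tested partners of the CEACAM1 cytoplasmic tail had no call by edgeR or DESeq2 and a median of 0.12. An unadjusted p below 0.05 was found for 4 of them (3089 of 15374 over all genes). FYN, a kinase of the SRC family, had a log2 fold change of 0.37 (SE 0.11; edgeR adjusted p = 0.067), and the adapter SHC1 0.25 (SE 0.08; edgeR adjusted p = 0.0848). Without high-dose replicate 2 their adjusted p was 0.031 and 0.00175 in edgeR, with log2 fold changes of 0.37 and 0.31, short of the fold threshold. FLNA, which encodes filamin A, had 0.39 (edgeR adjusted p = 0.248) and was called without high-dose replicate 2, with 0.62 (edgeR adjusted p = 1.66e-05). Colonocyte differentiation genes had no call by edgeR or DESeq2 among 15 tested, and a median of 0.15. Of these, 8 had an unadjusted p below 0.05 (3089 of 15374 over all genes). KLF4, a factor of differentiated colon epithelium, had a log2 fold change of 0.42 (7.9 to 10.6 CPM, edgeR adjusted p = 0.0347), short of the fold threshold, and CDX2, the intestinal homeobox factor, 0.40 (5.02 to 6.58 CPM, edgeR adjusted p = 0.052). CA2, a carbonic anhydrase gene, had −0.43 (edgeR adjusted p = 0.0694) and was called without high-dose replicate 2, with −0.59 (edgeR adjusted p = 0.000235).

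Of 20 transcription factors tied to CEACAM promoters, edgeR and DESeq2 called 0, and the median was 0.08. An unadjusted p below 0.05 was found for 8 (3089 of 15374 over all genes). NFKB2, a subunit of NF-κB, had the smallest p, with a log2 fold change of 0.48 (14.1 to 19.5 CPM, edgeR adjusted p = 0.00428). SOX9, a factor of the crypt base, had −0.42 (145 to 108 CPM, edgeR adjusted p = 0.0178). Both stayed short of the fold threshold.

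**Figure D5:**
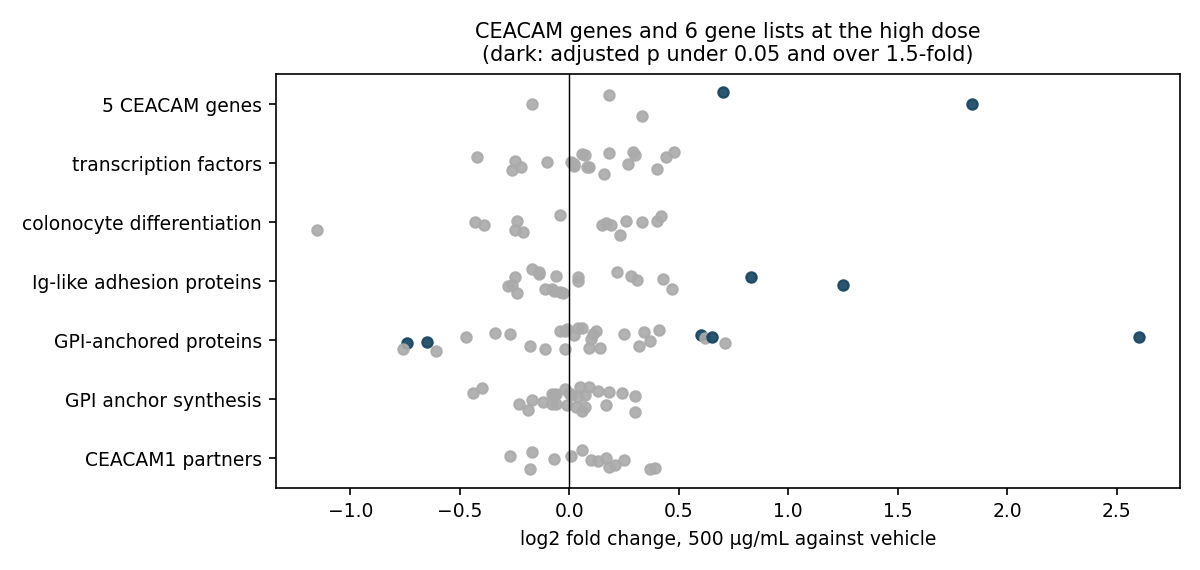
Log2 fold change at the high dose against vehicle (x axis) of each tested gene of the 6 lists related to the CEACAM family and of the 5 members, 1 row per list, with called genes (edgeR, adjusted p below 0.05 and over 1.5-fold) drawn dark. The medians of the lists lie between −0.05 and 0.15, ULBP1 at 2.60 is the farthest to the right, and CD24 and GPC3 are the called genes below zero.

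The pattern over the 12 libraries was compared with those of other genes by Pearson's r of log2 CPM, given as a description because all points share the groups and the library scaling. CEACAM7 was most like IL32, an inflammatory cytokine gene (r = 0.967), ST3GAL4, a sialyltransferase (0.959), and DGKA, a diacylglycerol kinase (0.954). All 3 were called at the medium and the high dose, which their choice by likeness to CEACAM7 makes likely, so it is no support. CEACAM7 itself averaged 1.59 and 1.79 CPM at those doses. In vehicle (0.508 CPM) and at the low dose (0.819 CPM) it was under the minimum of 1 CPM used to choose members here. CEACAM6 was most like THBS1, which encodes thrombospondin-1 (0.959), GNA15 (0.956) and SPSB1 (0.95). For CEACAM5 the values were 0.904 for BEST1, 0.9 for COTL1 and 0.9 for MT-RNR1, a mitochondrial ribosomal RNA. MT-RNR1 averaged 1290 CPM in vehicle and 30400 CPM at the high dose (log2 fold change 4.56). It was called at the medium and the high dose, whereas BEST1 and COTL1 were called at no dose. CEACAM1 was most like FRYL (0.977) and ITPR2 (0.973), with values of 0.934 and 0.949 without high-dose replicate 2. CEACAM19 reached only 0.878 with DPY19L2P2, 0.869 with RCN1P2 and 0.85 with USB1. Between members, r was 0.796 for CEACAM6 and CEACAM7, 0.72 for CEACAM5 and CEACAM6 and 0.637 for CEACAM5 and CEACAM7, and −0.566 for CEACAM1 and CEACAM5.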

How the data were processed

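Total RNA of HT29 cells was sequenced with 100-base paired-end reads from a directional mRNA kit. Per the paper's methods and the submitters' processing notes, the authors used FastQC 0.11.9, Trim Galore 0.6.5, STAR 2.7.3a and RSEM 1.3.3 with GRCh38; the paper's text names other versions of Trim Galore and STAR. The deposited values are RSEM's expected counts per gene, not normalized, which were rounded to whole numbers.

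Of 60675 gene identifiers, 93.2% (98.1% of the 29861 with a count) were in GENCODE release 44, from which symbols and positions were taken. edgeR 4.0.16 (R 4.3.3) was run with filterByExpr, TMM scaling and a robust quasi-likelihood fit on all 4 groups, and p-values were adjusted over all 15374 genes tested. Log2 CPM used a prior count of 2. DESeq2 1.42.0, other filters and scalings, leaving out each library and summed features were alternatives. Library totals of 15941255 to 33866644 set the precision, and for CEACAM7 and CEACAM19 few reads were counted. The edgeR script was tested on simulated data. Pairs of replicates differed by more than sampling noise.

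The members and lists were chosen with earlier results of these data known. Genes named from a list were up to 4 called at the high dose with the smallest adjusted p, or, with none called, the 2 with the smallest unadjusted p. Also named were the nearest tested neighbors and the 3 genes most like each member, for members whose own mean was at least 1 CPM, with no such minimum for the other gene. One gene that this rule names is not reported here. Transcripts of GENCODE release 44 were cut into windows of 100 and words of 25 bases. Protein sequences were not used here, and of the 5 promoters that of CEACAM19 was not used. RefSeq promoters were matched by symbol for 4 of the 5 members.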

Additional observations from a re-analysis of the deposited data

Results flagged for a closer look

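Some members lay on opposite sides of the vehicle mean at different doses. The doses share their vehicle libraries. The difference between the low and the medium dose was not tested, and the high dose against the low dose gave log2 fold changes of −0.22 for CEACAM1, 0.91 for CEACAM5 and 0.36 for CEACAM6, of which CEACAM5 was called. Every low-dose library of CEACAM1 was above the vehicle mean of 123 CPM and every medium-dose and high-dose library below it, with means of 128, 121 and 110 CPM. For CEACAM5 every low-dose library was below the vehicle mean of 6.12 CPM (mean 5.25) and every high-dose library above it (mean 9.82). For CEACAM6 every low-dose library was below the vehicle mean of 34.4 CPM (mean 33.8), while all medium-dose (mean 43.6) and high-dose libraries (mean 43.2) were above it. The low-dose libraries of all 3 genes overlapped with those of vehicle. So did the medium-dose and high-dose libraries of CEACAM1. Its log2 fold changes were 0.05, −0.03 and −0.17 from low to high dose (SE 0.08 each). How many of all genes lay on opposite sides in this way was not counted, so nothing is read from it.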

How the results depend on the processing

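With edgeR on only the 2 groups compared, 1 member (CEACAM7) and 4 list genes were called at the high dose, in place of 2 and 7. With no minimum fold change, 16 list genes were called at the high dose and 1 at the medium dose, in place of 7 and 0. Leaving out 1 library at a time gave 1 to 2 members and 5 to 10 list genes at the high dose. CEACAM5 lost its call without vehicle replicate 2 and without high-dose replicate 1. DESeq2 on 2 groups called 0 members at the medium dose, where the call lost was CEACAM7 (log2 fold change 1.69, SE 0.42, in place of 1.68, SE 0.23). With CEACAM1, CEACAM5, CEACAM6 and CEACAM7 added into 1 feature, the high-dose value against the low dose was −0.02 for the sum, opposite in sign to CEACAM5 and CEACAM7, and with CEACAM5 and CEACAM6 added it was 0.44. The construction of the sum, which CEACAM1 dominates, accounts for the former. Of the 15 genes most like a member, 7 stayed without high-dose replicate 2. Replicate numbers showed no clear pairing: over 18 pairs with the same number the correlation of deviations was −0.495 to 0.372, and 4 of 12 libraries correlated best with their own number. Deviations were taken within small groups and high-dose replicate 2 stood apart, so this check cannot exclude pairing. For CEACAM5, replicate 1 was the highest in every group. With the number as a block, 2 members and 7 list genes were called at the high dose and 1 and 0 at the medium dose. The high-dose value of CEACAM5 was then 0.69 (SE 0.11), in place of 0.70 (SE 0.14). The log2 fold change of CEACAM7 at the high dose was 1.72 to 2.04 over 20 alternatives and called in all 20, and that of CEACAM5 was 0.57 to 0.79 and called in 17. Depth limits CEACAM7 and CEACAM19 most, with 10 to 61 and 11 to 38 counts per library.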
